A study of Mus musculus with 10 samples.

Results

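The genes described here carry glucose from the medium to pyruvate, lactate, glycogen or the mitochondrion: 40 genes chosen by name, of 25965 features in the deposited table, and arranged in 11 steps. By name 38 were in the table, and Mpc1 and Mpc2 were found under their older symbols Brp44l and Brp44. They were followed by RNA-seq in male C57/Bl6 mouse embryonic stem cells (mESCs) from 2 lines derived under the study's own culture method. After the split at passage 0 (p0), each line was kept in 2i medium through passage 10 (p10) and passage 20 (p20) under Keniry2022 conditions (suspension, on plates without tissue culture treatment, at higher density, in more medium, passaged every day) or under Mulas2019 conditions (attached to gelatin, at lower density, in less medium, passaged every second day). The groups were therefore p0, p10 Keniry2022, p20 Keniry2022, p10 Mulas2019 and p20 Mulas2019, with 2 libraries each and 10 in all. A low-oxygen incubator is stated for Keniry2022, and the oxygen level under Mulas2019 is not given in the sources used here. All cells had been derived under Keniry2022 conditions, so the p0 libraries are also cells of that method. The p20 Keniry2022 and p10 Mulas2019 groups are matched in days of culture, whereas the same passage number stands for fewer days under Keniry2022.

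Glycolysis splits glucose into pyruvate in the cytosol, yielding ATP without oxygen. Pyruvate is then either reduced to lactate and exported, or carried into mitochondria and oxidised to acetyl-CoA by the pyruvate dehydrogenase (PDH) complex, which PDH kinases switch off by phosphorylation. Glucose can also be stored as glycogen. Many genes of glycolysis, lactate formation and PDH inhibition are textbook targets of hypoxia-inducible factors and of MYC, and naive mESCs are known to use both glycolysis and mitochondrial respiration.

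Under Keniry2022 conditions most of the glycolytic genes, from glucose uptake to lactate export, had lower mRNA levels than under Mulas2019 conditions at p10, and 3 of the 5 genes of the PDH complex and the mitochondrial pyruvate carrier had higher levels. Of the 37 members that could be tested, 22 were lower under Keniry2022 at p10 and 6 were higher (limma on log2 RPKM, adjusted p below 0.05). Over all features 23.5% were lower and 24.8% higher, 48.3% in either direction. The median log2 difference of the tested members was -0.49, against 0.00 over all 11654 features tested. At p20 the differences were mostly smaller, with 13 members lower and 3 higher, beside 18.2% and 18.6% of all features (36.7% in either direction), and medians of -0.14 for the members and -0.01 for all features. With the libraries centred on their medians, the p20 split was 11 lower and 5 higher, without a share of all features beside it. Of the 16 members called at p20, 14 stayed called under that centring and 0 changed sign. Some p20 calls were lost without p20 Mulas2019 replicate 1, where fewer of all features were called too. Both libraries of a method lay clear of both of the other at p10 for 26 members that were lower (37.8% of all features) and 8 that were higher (38.8%), and at p20 for 19 (36%) and 9 (33.8%). Over the 4 libraries of each method, 19 members were lower without overlap and 6 higher, against 23.4% and 23.1% of all features.

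**Figure D1:**
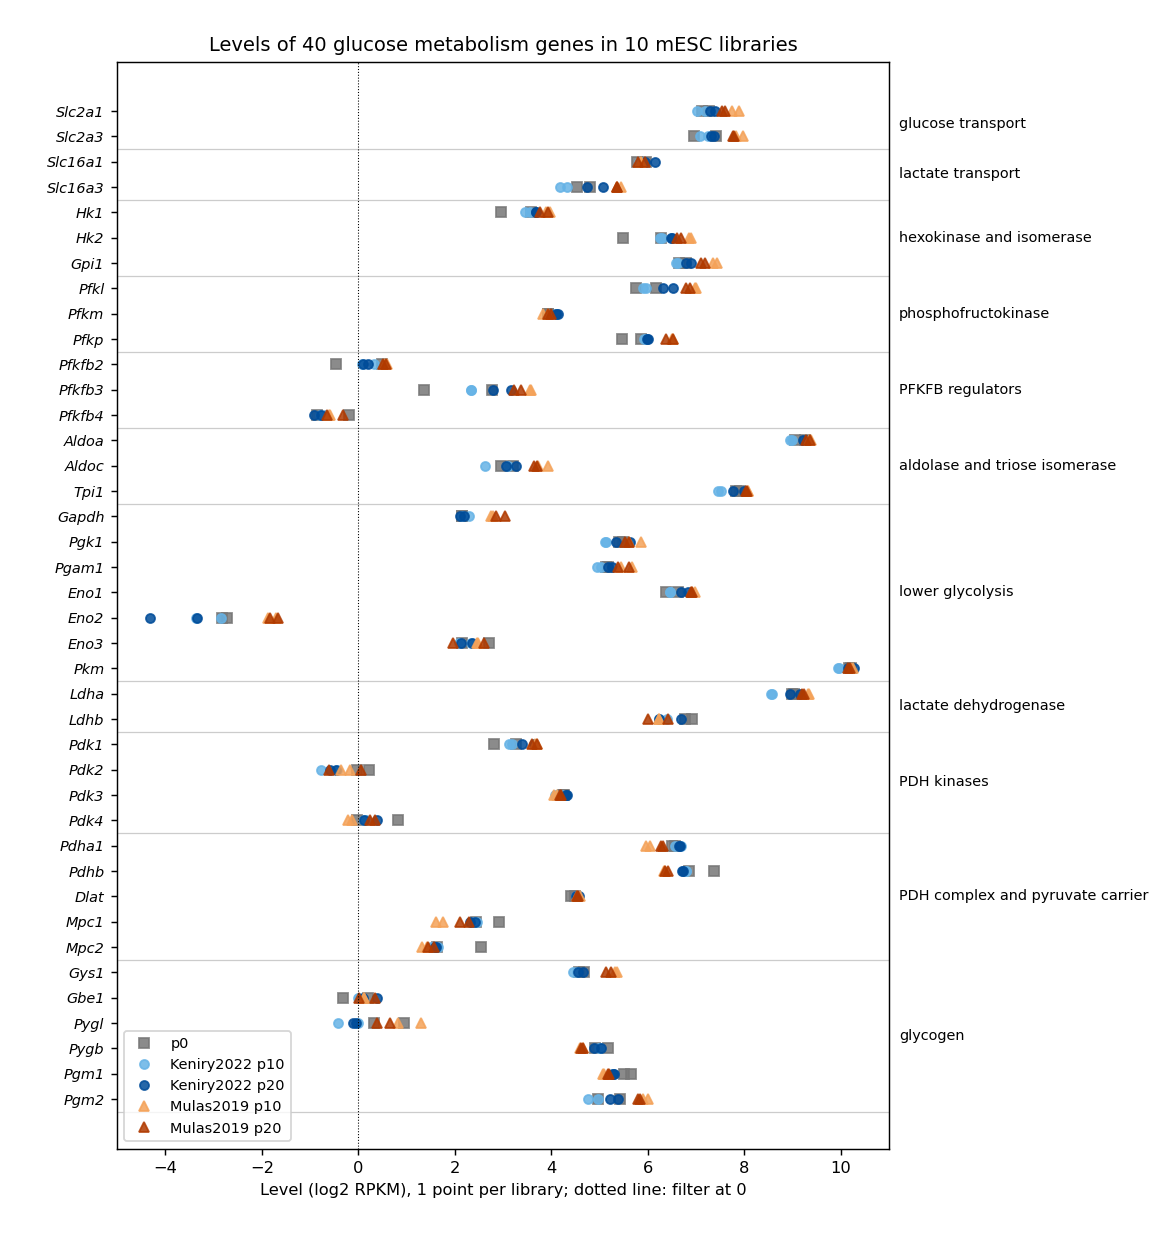
Levels of the 40 members in each of the 10 libraries (horizontal axis, log2 RPKM; 1 point per library, grey squares p0, blue circles Keniry2022, orange and brown triangles Mulas2019), ordered by step. Pkm is highest, with a mean of 10.15, Eno2 is lowest at -2.64, and Pfkfb4, Eno2 and Pdk2 lie mostly below the dotted line at 0 and were not tested.

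With 2 libraries per group, each p-value rests on the spread between these pairs. Both lines are given as male, and the study reports that a line lost its Y chromosome during derivation, before the methods were compared. The lines could be told apart by Y-linked genes. In each group 1 library had 13 to 132 reads from 4 such genes and the other 4578 to 8140. The low library was replicate 1 in 4 groups and replicate 2 at p20 Keniry2022, so the replicate numbers do not follow the lines in that group. With the line as a block on that crossed numbering, a fit chosen after seeing the data, 28 members were called at p10 (48.7% of all features) and 16 at p20 (37.6%). The libraries held 24053991 to 30236817 reads, and the members 7 to 92699 reads in a library. The p0 libraries stood apart: the SD over features of the log2 difference between replicates was 0.611 at p0 and 0.23 to 0.265 in the other 4 groups. The main comparisons of the methods were fitted on the 8 libraries of p10 and p20, since p0 is not part of them and the study fitted these libraries. With the p0 pair in the fit, 19 members were called at p10 (17 lower, 2 higher; 8.53% of all features) and 2 at p20 (Gys1 and Gapdh, both lower; 2.15% of all features). All 14 naive mESC marker genes were detected in every library. Their summed level was 1922 and 1982 RPKM in the p10 Keniry2022 libraries against 1666 and 1695 at p10 Mulas2019. Gene by gene the markers were mixed. At p10, 6 were called higher under Keniry2022, 2 were called lower (Klf4 and Dppa3) and 6 were not called. Over all features 24.8% were higher and 23.5% lower. The fibroblast markers summed to 0.793 to 1.72 RPKM over all libraries, all 10 stayed below a log2 of 0, and 2 of them (Postn and Dcn) had 0 reads in every library. Of 15 markers of differentiated lineages, 11 stayed below a log2 of 0 in every library. Their sum was 26.7 to 29.6 RPKM at p10 Keniry2022 and 36.7 to 38 at p10 Mulas2019, mostly from Tfap2c, which mESCs express. The part of these marker differences in the results was not tested. In bulk RNA, fewer cells of a type and less RNA per cell cannot be told apart.

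Promoters are shown first, for members that were lower, higher and not called at p10. Over all members, the core letters of the hypoxia response element occurred in each of these classes, though not in every window printed. The 250 bases before the transcription start are from RefSeq on GRCm38.p6, written 5′ to 3′ along the gene, with ACGTG or GCGTG on either strand in capitals. Where a CACGTG E-box occurs it contains ACGTG on both strands. Ldha (lactate dehydrogenase A, chr7:46845554-46845803 (plus strand)) and Pgk1 (phosphoglycerate kinase, chrX:106186850-106187099 (plus strand)) were lower under Keniry2022 at p10, Pdha1 (the catalytic subunit of PDH, chrX:160138431-160138680 (minus strand)) was higher, and Dlat (the PDH acetyltransferase subunit, chr9:50659781-50660030 (minus strand)) was not called. No window printed here overlaps a GENCODE exon.
Ldha: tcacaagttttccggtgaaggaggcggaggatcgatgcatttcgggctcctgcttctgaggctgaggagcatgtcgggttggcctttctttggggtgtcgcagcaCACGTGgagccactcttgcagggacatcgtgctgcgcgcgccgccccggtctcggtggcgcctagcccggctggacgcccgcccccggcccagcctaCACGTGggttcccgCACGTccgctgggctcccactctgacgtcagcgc
Pgk1: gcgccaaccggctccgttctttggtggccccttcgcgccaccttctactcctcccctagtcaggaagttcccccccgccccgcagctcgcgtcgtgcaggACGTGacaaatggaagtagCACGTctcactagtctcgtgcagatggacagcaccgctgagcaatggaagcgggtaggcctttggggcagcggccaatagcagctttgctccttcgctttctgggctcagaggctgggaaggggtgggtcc
Pdha1: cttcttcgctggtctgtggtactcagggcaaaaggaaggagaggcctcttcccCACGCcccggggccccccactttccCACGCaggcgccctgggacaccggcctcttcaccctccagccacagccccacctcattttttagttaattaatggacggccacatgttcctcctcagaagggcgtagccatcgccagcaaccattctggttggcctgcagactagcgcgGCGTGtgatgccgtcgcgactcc
Dlat: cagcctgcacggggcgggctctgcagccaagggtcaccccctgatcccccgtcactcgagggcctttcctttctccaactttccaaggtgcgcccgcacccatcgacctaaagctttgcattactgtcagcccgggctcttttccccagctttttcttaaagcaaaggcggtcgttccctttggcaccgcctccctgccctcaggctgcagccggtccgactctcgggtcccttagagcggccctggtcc
The Ldha window held 5 matches to ACGTG, among them both strands of 2 E-boxes, the Pgk1 window 2 matches to ACGTG, the Pdha1 window 3 matches to GCGTG, and the Dlat window none of these letters. RefSeq gave windows for 39 members, 56 in all, and 43 of the windows (76.8%) held ACGTG or GCGTG, against 38.6% of all 32851 windows of the same length. ACGTG alone was in 16.6% of all windows, GCGTG in 28.2% and CACGTG in 6.02%. The windows of all genes were not matched to those of the members in base composition or level. Some windows of a member overlap, as for Eno1, Aldoa and Pfkm, and were counted apart. The contrast with all windows was not tested. A window with a match was found for 18 of 21 members that were lower at p10, for 6 of 6 that were higher and for 9 of 12 that were not called or not tested. By windows the shares were 77.4%, 80% and 73.3%, so the match did not part the members by direction.

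Both glucose transporters were lower under Keniry2022. Slc2a3 (GLUT3), the higher of the pair in mean level, stood at a log2 RPKM of 7.25 and 7.09 at p10 Keniry2022, 7.38 and 7.30 at p20 Keniry2022, 7.98 and 7.82 at p10 Mulas2019, 7.76 and 7.79 at p20 Mulas2019, and 6.95 and 7.42 at p0. Every Mulas2019 library lay above every Keniry2022 library. The difference was -0.73 ± 0.0688 (SE; adjusted p = 0.000217) at p10 and -0.43 ± 0.0688 (adjusted p = 0.00287) at p20. Slc2a1 (GLUT1) differed by -0.72 at p10 and by -0.23 ± 0.0696 (adjusted p = 0.0326) at p20, and its range of 7.01 to 7.39 under Keniry2022 also stayed below the 7.53 to 7.88 under Mulas2019. The p20 call of Slc2a1 was lost without p20 Keniry2022 replicate 2 or either p20 Mulas2019 library.

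The lactate exporters behaved unequally. Slc16a3 (MCT4), which exports lactate from glycolytic cells, had 4.32 and 4.18 at p10 Keniry2022, 5.08 and 4.73 at p20 Keniry2022, 5.37 and 5.45 at p10 Mulas2019, 5.36 and 5.35 at p20 Mulas2019, and 4.53 and 4.80 at p0 on the log2 RPKM scale. Again the methods did not overlap, and the differences were -1.16 ± 0.103 (adjusted p = 0.000187) at p10 and -0.45 ± 0.103 (adjusted p = 0.0112) at p20, the latter lost without p20 Mulas2019 replicate 1. Slc16a1 (MCT1), which carries lactate and pyruvate in either direction, had 5.85 and 5.82, 6.14 and 5.93, 5.85 and 5.86, and 5.80 and 5.93 in the same order of groups, and 5.77 and 5.97 at p0. Its difference was -0.02 ± 0.071 at p10 (adjusted p = 0.87) and 0.17 ± 0.071 at p20 (adjusted p = 0.0874). The log2 ratio of Slc16a3 to Slc16a1 was therefore -1.64 to -1.06 under Keniry2022 and -0.57 to -0.41 under Mulas2019.

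In the first steps, hexokinases phosphorylate glucose, Gpi1 converts it to fructose 6-phosphate and phosphofructokinase commits it to glycolysis. Gpi1 had log2 levels of 6.62 and 6.58 at p10 Keniry2022, 6.90 and 6.79 at p20 Keniry2022, 7.43 and 7.35 at p10 Mulas2019, 7.19 and 7.11 at p20 Mulas2019 and 6.65 and 6.79 at p0. It was lower under Keniry2022 at p10 (-0.79 ± 0.0533, adjusted p = 7.87e-05) and at p20 (-0.31 ± 0.0533, adjusted p = 0.00396). Hk2, the inducible hexokinase, differed by -0.60 at p10 and by -0.17 at p20 (adjusted p = 0.0167), where the call was lost without p20 Keniry2022 replicate 1 or p20 Mulas2019 replicate 1. Hk1, the ubiquitous hexokinase, was lower at p10 (-0.42 ± 0.0711) and was not called at p20 (-0.16 ± 0.0711, adjusted p = 0.101). Hk2 made up 86.9% to 88.6% of the summed hexokinase level under both methods, so the balance of the isoenzymes hardly moved.

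The phosphofructokinase isoenzymes did not move together. Pfkl, the liver type, had log2 levels of 5.96 and 5.90 at p10 Keniry2022, 6.53 and 6.32 at p20 Keniry2022, 7.0 and 6.98 at p10 Mulas2019, 6.87 and 6.78 at p20 Mulas2019 and 5.76 and 6.17 at p0. The differences were -1.06 ± 0.068 (adjusted p = 7.58e-05) at p10 and -0.40 ± 0.068 (adjusted p = 0.00376) at p20. Pfkp, the platelet type, differed by -0.57 at p10 and -0.45 at p20, both called. Pfkm, the muscle type, went the other way at p10: 4.10 and 4.10 at p10 Keniry2022, 4.10 and 4.14 at p20 Keniry2022, 3.83 and 3.94 at p10 Mulas2019, 3.94 and 3.99 at p20 Mulas2019 and 3.93 and 3.94 at p0. Its difference was small, at 0.21 ± 0.0535 (adjusted p = 0.0116) at p10 and 0.15 ± 0.0535 (adjusted p = 0.0541) at p20, and the p10 call was lost without either p10 Keniry2022 library or without p10 Mulas2019 replicate 1. Pfkm made up 9.86% to 12.3% of the summed phosphofructokinase level under Keniry2022 and 6.13% to 7.64% under Mulas2019.

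The PFKFB enzymes make and remove fructose 2,6-bisphosphate, the strongest activator of phosphofructokinase. Pfkfb3, the kinase-dominant form, had log2 levels of 2.34 and 2.34 at p10 Keniry2022, 3.16 and 2.80 at p20 Keniry2022, 3.58 and 3.55 at p10 Mulas2019, 3.22 and 3.38 at p20 Mulas2019 and 1.36 and 2.76 at p0. The p10 difference of -1.23 ± 0.109 (adjusted p = 0.000185) was among the largest of the members. At p20 it was -0.32 ± 0.109 (adjusted p = 0.0495), and this call was lost when any library other than p20 Keniry2022 replicate 1 was left out. Pfkfb2 ranged from 0.08 to 0.33 under Keniry2022 and from 0.51 to 0.59 under Mulas2019, with -0.37 ± 0.143 (adjusted p = 0.0608) at p10. Pfkfb4 lay between -0.91 and -0.20 in all libraries and was not tested.

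**Figure D2:**
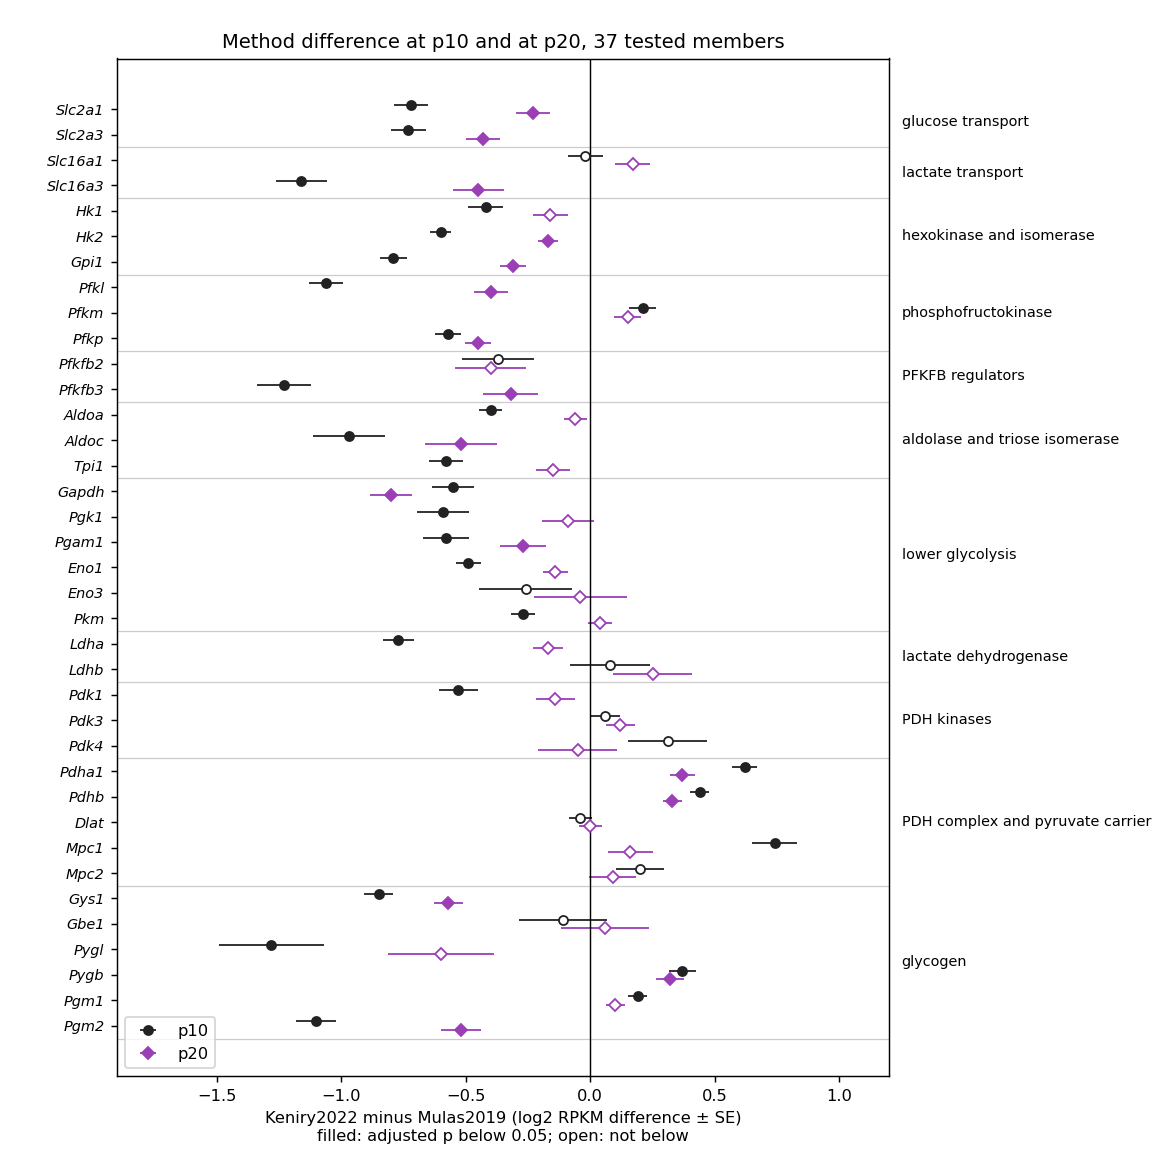
Differences between the methods (horizontal axis, Keniry2022 minus Mulas2019 in log2 RPKM; bars are the SE of the fit) for the 37 tested members at p10 (black circles) and p20 (purple diamonds), filled where the adjusted p was below 0.05. Most members of the glycolytic steps lie left of 0 at p10 (Pfkm at 0.21 and Ldhb at 0.08 do not), Pygl of the glycogen step is the farthest at -1.28, Pdha1, Pdhb and Mpc1 lie right of 0, and most p20 values are nearer to 0.

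Aldolase and triose phosphate isomerase, which split the sugar and interconvert the products, were lower at p10. Aldoa, the main aldolase here, had log2 levels of 8.98 and 8.94 at p10 Keniry2022, 9.29 and 9.22 at p20 Keniry2022, 9.38 and 9.34 at p10 Mulas2019, 9.36 and 9.27 at p20 Mulas2019 and 9.25 and 9.05 at p0. It differed by -0.40 ± 0.0453 (adjusted p = 0.000406) at p10 and by -0.06 ± 0.0453 (adjusted p = 0.332) at p20, where the libraries of the methods overlapped. Aldoc, the brain type, stood far lower and differed more. Its log2 levels were 3.10 and 2.62, 3.26 and 3.07, 3.92 and 3.73, and 3.65 and 3.71 in the same order of groups, with 2.95 and 3.20 at p0, and it was called at both passages (-0.97 ± 0.144 and -0.52 ± 0.144), at p20 not without p20 Keniry2022 replicate 2 or either p20 Mulas2019 library. Tpi1, triose phosphate isomerase, differed by -0.58 at p10 and by -0.15 at p20 (adjusted p = 0.105).

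In lower glycolysis, which makes ATP and pyruvate, 5 of 6 tested members were lower at p10 and 2 at p20. Pkm, pyruvate kinase and the highest member, had log2 levels of 9.97 and 9.93 at p10 Keniry2022, 10.27 and 10.15 at p20 Keniry2022, 10.24 and 10.20 at p10 Mulas2019, 10.19 and 10.15 at p20 Mulas2019 and 10.21 and 10.16 at p0. The p10 Keniry2022 pair alone stood below the rest, with -0.27 ± 0.0475 (adjusted p = 0.00237) at p10 and 0.04 ± 0.0475 (adjusted p = 0.506) at p20. Pgk1, which makes the first ATP of the pathway, had 5.14 and 5.12, 5.63 and 5.33, 5.85 and 5.60, and 5.53 and 5.61 in the same order, with 5.49 and 5.41 at p0. It too was lower at p10 (-0.59 ± 0.105, adjusted p = 0.00247) and not called at p20 (-0.09 ± 0.105), where the methods overlapped.

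Pgam1 (phosphoglycerate mutase) differed by -0.58 at p10 and -0.27 at p20 (adjusted p = 0.0482). This p20 call was lost without either p10 Keniry2022 library, either p20 Keniry2022 library or p20 Mulas2019 replicate 1. Eno1 (enolase 1) differed by -0.49 and -0.14 (adjusted p = 0.0556 at p20). Eno3, the muscle enolase, was not called at either passage. Eno2, the neuronal enolase, was not tested, with 7 to 19 reads in the p0 and Keniry2022 libraries and 35 to 41 under Mulas2019. Gapdh was lower at both passages, by -0.55 ± 0.0838 and -0.80 ± 0.0838 (adjusted p = 0.00136 and 0.00084). Its level rested on 240 to 512 reads per library, far below its neighbours in the pathway, and 22.6% of its 75-base windows also occur in transcripts of 121 other genes, 115 of them pseudogenes. The share of such windows was 52.8% for Pgk1, 34.9% for Pgam1, 23% for Eno1, 21.3% for Mpc1, 17.8% for Pkm and 16.2% for Pfkfb2. The levels of these genes are therefore uncertain. Every other member had 12.6% or less.

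Lactate dehydrogenase reduces pyruvate to lactate. Ldha had log2 levels of 8.58 and 8.55 at p10 Keniry2022, 9.15 and 8.95 at p20 Keniry2022, 9.34 and 9.32 at p10 Mulas2019, 9.24 and 9.20 at p20 Mulas2019 and 8.99 and 9.02 at p0. The p10 Keniry2022 pair lay lowest and p10 Mulas2019 highest, with -0.77 ± 0.0617 (adjusted p = 0.000136) at p10 and -0.17 ± 0.0617 (adjusted p = 0.0606) at p20. Ldhb, whose tetramers favour lactate oxidation, ranged from 6.0 to 6.69 under both methods and was not called (0.08 ± 0.16 and 0.25 ± 0.16). It made up 13.2% to 18% of the summed lactate dehydrogenase level under Keniry2022 and 9.55% to 12.7% under Mulas2019.

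Of the 5 genes of the PDH complex and the mitochondrial pyruvate carrier, 3 were higher under Keniry2022 at p10 and 2 at p20, and 0 were lower. Pdha1, the catalytic subunit of PDH, had log2 levels of 6.56 and 6.68 at p10 Keniry2022, 6.65 and 6.67 at p20 Keniry2022, 5.96 and 6.05 at p10 Mulas2019, 6.28 and 6.31 at p20 Mulas2019 and 6.49 and 6.56 at p0. It was higher under Keniry2022 by 0.62 ± 0.0503 (adjusted p = 0.000145) at p10 and by 0.37 ± 0.0503 (adjusted p = 0.00167) at p20. Pdhb, its partner subunit, had 6.80 and 6.78, 6.71 and 6.72, 6.33 and 6.36, and 6.36 and 6.41 in the same order, with 7.38 and 6.85 at p0, and was higher by 0.44 ± 0.0379 and 0.33 ± 0.0379, called at both passages. For both subunits no library of the methods overlapped.

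Mpc1, a subunit of the mitochondrial pyruvate carrier, had log2 levels of 2.46 and 2.39 at p10 Keniry2022, 2.41 and 2.32 at p20 Keniry2022, 1.61 and 1.76 at p10 Mulas2019, 2.30 and 2.11 at p20 Mulas2019 and 2.92 and 2.43 at p0. Only the p10 difference was called (0.74 ± 0.0903, adjusted p = 0.000534), and at p20 it was 0.16 ± 0.0903 (adjusted p = 0.183). Its partner subunit Mpc2 (0.20 ± 0.0949 at p10) and Dlat (-0.04 ± 0.0458) were not called at either passage.

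Of the PDH kinases, Pdk3 had the highest level and was not called at p10 or p20, with log2 levels of 4.08 and 4.22 at p10 Keniry2022, 4.31 and 4.33 at p20 Keniry2022, 4.06 and 4.12 at p10 Mulas2019, 4.18 and 4.21 at p20 Mulas2019 and 4.27 and 4.25 at p0. Pdk1, a kinase known for its induction in low oxygen, had 3.12 and 3.19, 3.63 and 3.40, 3.66 and 3.71, and 3.60 and 3.70 in the same order, with 2.81 and 3.27 at p0. It was lower under Keniry2022 at p10 (-0.53 ± 0.0793, adjusted p = 0.00125) and at p20 differed by -0.14 ± 0.0793 (adjusted p = 0.191). Pdk4, on 78 to 167 reads, was not called at either passage, and Pdk2 was not tested.

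Glycogen genes were split. Gys1, glycogen synthase, was lower under Keniry2022 at p10 (-0.85 ± 0.0585, adjusted p = 8.69e-05) and at p20 (-0.57 ± 0.0585, adjusted p = 0.000812), and its 4.44 to 4.66 under Keniry2022 did not reach the 5.13 to 5.36 under Mulas2019. Pygl, the liver glycogen phosphorylase, had log2 levels of -0.01 and -0.43 at p10 Keniry2022, -0.05 and -0.10 at p20 Keniry2022, 1.30 and 0.82 at p10 Mulas2019, 0.66 and 0.39 at p20 Mulas2019 and 0.32 and 0.94 at p0, on 82 to 228 reads. It showed the largest difference of all members at p10 (-1.28 ± 0.212, adjusted p = 0.00187), whereas -0.60 ± 0.212 at p20 was not called (adjusted p = 0.0557). Pygb, the brain phosphorylase and the main form here, was higher under Keniry2022. It had 5.0 and 4.99, 4.88 and 5.02, 4.59 and 4.66, and 4.65 and 4.61 in the same order, with 4.90 and 5.17 at p0, and differed by 0.37 ± 0.0545 (adjusted p = 0.00116) and 0.32 ± 0.0545 (adjusted p = 0.00374). Gbe1, the branching enzyme, was not called.

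The phosphoglucomutases carry exchanged names in the table. The feature named Pgm2 (chr4:99929414-99987294, mm10) is Pgm1 in GENCODE and RefSeq, and the feature named Pgm1 (chr5:64092936-64128355) is Pgm2 there. The feature named Pgm2 in the table had log2 levels of 4.96 and 4.76 at p10 Keniry2022, 5.39 and 5.21 at p20 Keniry2022, 6.01 and 5.90 at p10 Mulas2019, 5.84 and 5.80 at p20 Mulas2019 and 4.96 and 5.43 at p0. It was lower by -1.10 ± 0.0803 (adjusted p = 0.000109) at p10 and -0.52 ± 0.0803 (adjusted p = 0.00251) at p20. The feature named Pgm1 had 5.25 and 5.28, 5.29 and 5.28, 5.06 and 5.09, and 5.19 and 5.18 in the same order, with 5.66 and 5.50 at p0, and was slightly higher under Keniry2022 at p10 (0.19 ± 0.0388, adjusted p = 0.00527) but not called at p20 (0.10 ± 0.0388). The log2 ratio of these features was -0.52 to 0.10 under Keniry2022 and 0.62 to 0.94 under Mulas2019.

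**Figure D3:**
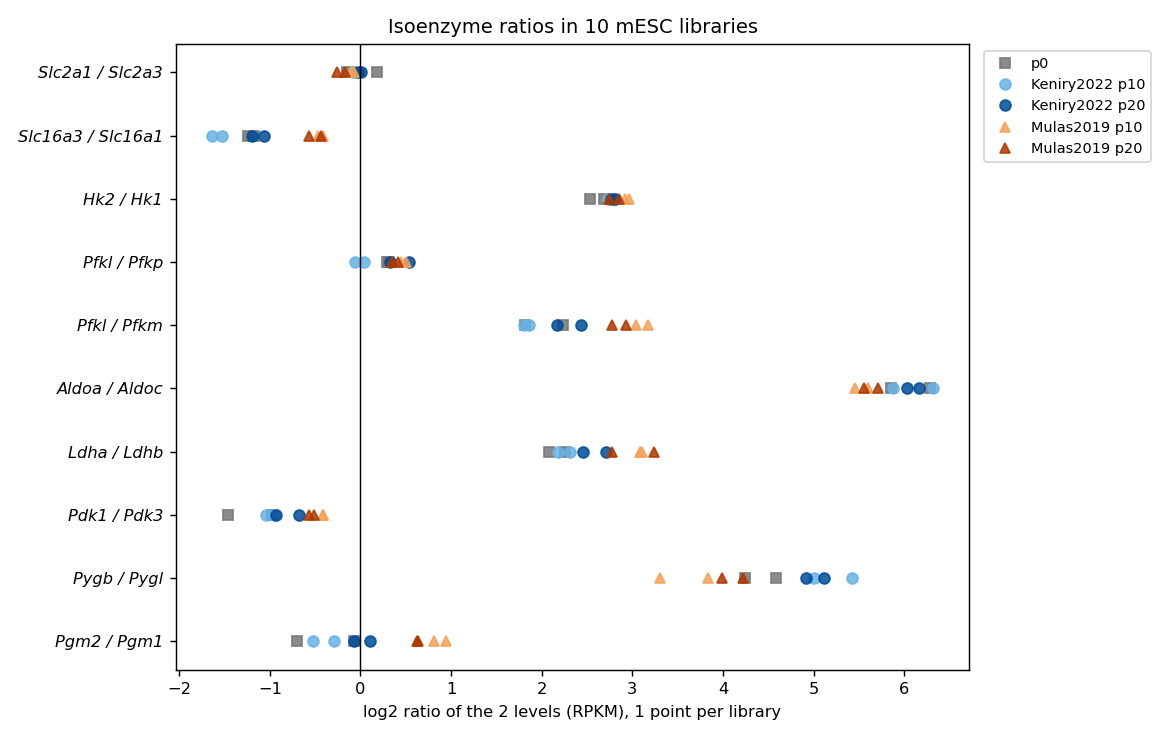
Log2 ratios of the levels of isoenzymes and partner genes (horizontal axis, RPKM per RPKM; 1 point per library, grey squares p0, blue circles Keniry2022, orange and brown triangles Mulas2019; Pgm1 and Pgm2 as named in the table). The methods separate for Slc16a3/Slc16a1, Pfkl/Pfkm, Aldoa/Aldoc, Ldha/Ldhb, Pdk1/Pdk3, Pygb/Pygl and Pgm2/Pgm1, and overlap for Slc2a1/Slc2a3, Hk2/Hk1 and Pfkl/Pfkp.

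The relation between passages was examined next. All 16 members called at p20 were also called at p10, in the same direction, and 15 of them differed less at p20, Gapdh being the exception. The other 12 were called at p10 alone. The difference between the passages was itself tested as the method by passage interaction, and 0 members and 0 features (0%) passed. The lowest adjusted p was 0.069 (Hk2, Pfkl and Ldha). At an unadjusted p below 0.05 there were 20 members, 18 with a positive and 2 (Mpc1 and Pdha1) with a negative term, beside 15.8% of all features. With voom on the recovered reads, an alternative chosen after seeing the data, 11 members passed (0.72% of all features), all with a positive term, Hk2, Pfkl, Ldha and Slc16a3 among them. Without p20 Keniry2022 replicate 2, 5 members passed (0.138% of all features).

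Within the Keniry2022 method, 0 members were called between p20 and p10 (0.0343% of all features), while 19 had an unadjusted p below 0.05, all higher at p20, beside 12.7% of all features (voom called 9, all higher, and 0.416% of all features). Without p20 Keniry2022 replicate 2, 6 were called (0.138%). In 23 members both p20 libraries lay above both p10 libraries, against 22.7% of all features, Aldoa, Pkm and Ldha among them, and in 1 (Pdhb) below, again against 22.7%. Within Mulas2019, where 1.61% of all features were called higher at p20 and 0.858% lower (2.47% in all), Pdha1 (0.29 ± 0.0503) and Mpc1 (0.52 ± 0.0903) were higher at p20 and Hk2 was lower (-0.23 ± 0.0419), with adjusted p of 0.0386, 0.0386 and 0.0391. None of these 3 calls remained when p10 Keniry2022 replicate 1, p10 Keniry2022 replicate 2, p10 Mulas2019 replicate 1, p20 Mulas2019 replicate 1 or p20 Mulas2019 replicate 2 was left out. With median centring the split was 2 higher and 2 lower, without a share of all features beside it. Voom called 5 members (5.46% of all features).

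**Figure D4:**
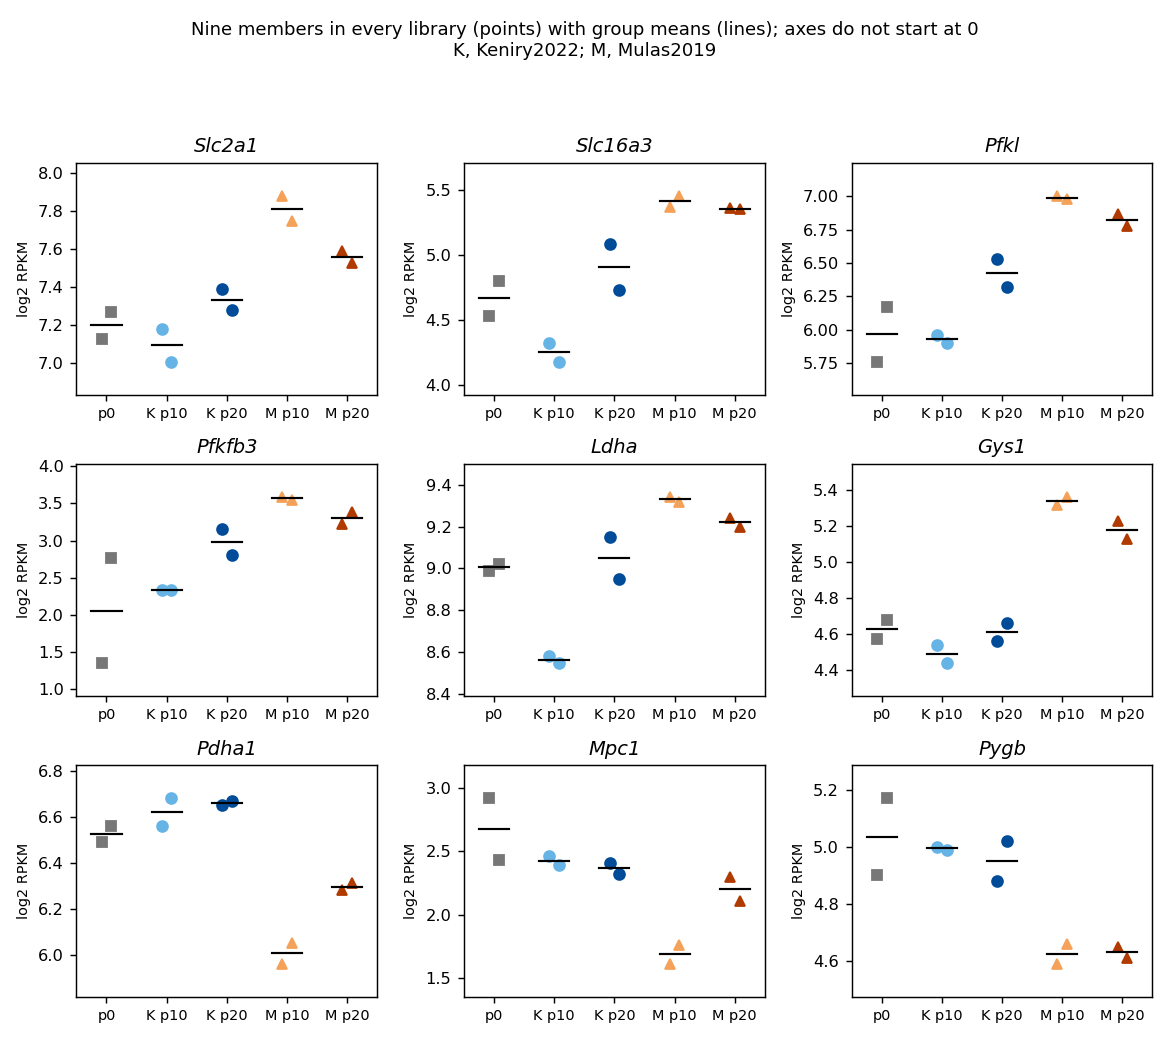
Levels of 9 members by group (vertical axes, log2 RPKM, not starting at 0; points are libraries and lines are the means of the 2 libraries). Slc2a1, Slc16a3, Pfkl, Pfkfb3, Ldha and Gys1 are highest at p10 Mulas2019, Pdha1 and Mpc1 are lowest there, and Pygb is lower under Mulas2019 at both passages.

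At matched days of culture (p20 Keniry2022 against p10 Mulas2019), 18 members were lower under Keniry2022 and 7 higher, beside 20.7% and 22.7% of all features (43.4% in either direction), with a median of -0.23 for the members and 0.01 for all features. Slc2a3 differed by -0.56, Pfkl by -0.56, Ldha by -0.28, Gys1 by -0.73 and Pdha1 by 0.65, all called. Pkm (-0.01 ± 0.0475, adjusted p = 0.869) and Aldoa (-0.10 ± 0.0453, adjusted p = 0.102) were not. Pdk3 was higher in this comparison (0.23 ± 0.0577, adjusted p = 0.0148), a call lost without p20 Keniry2022 replicate 2 or p10 Mulas2019 replicate 1. With the p0 libraries in the fit, 8 members were called, 6 lower and 2 higher, beside 6.43% of all features. With p10 and p20 pooled, as the study did, 22 members were lower and 6 higher, and 51.5% of all features were called. These comparisons share libraries with those above.

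Against the starting cells, many of the members differed under Mulas2019. At p10 Mulas2019, 17 members were higher than at p0 and 6 lower, beside 15.7% and 17.3% of all features (33% in either direction). Pfkfb3 was higher by 1.51 ± 0.376, Pfkl by 1.03 ± 0.138, Hk2 by 0.99 ± 0.211 and Gys1 by 0.72 ± 0.0862, while Mpc1 (-0.99 ± 0.162), Pdhb (-0.77 ± 0.15), Ldhb (-0.60 ± 0.178) and Pdha1 (-0.52 ± 0.0786) were lower. At p20 Mulas2019, 15 were higher and 4 lower, beside 14.7% and 14.6% of all features (29.3% in either direction). The calls of both comparisons needed both Mulas2019 libraries of the group. Nearly all were lost when either was left out, and so were most calls over all features. The differences of the called members kept their direction under every alternative. At p10 they were 0.82 to 1.27 for Pfkl, 0.66 to 0.82 for Gys1 and -0.56 to -0.25 for Pdha1. The p20 count was 8 without either p10 Mulas2019 library (12.8% and 13.1% of all features), 9 without either p10 Keniry2022 library (11.1% and 11.4%) and 11 without either p20 Keniry2022 library (13.2% and 12.9%).

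Between either Keniry2022 group and p0, 0 members were called, while 23 features were called in each comparison (0.199%). Of all features, 0.0432% were called higher and 0.156% lower at p10 Keniry2022, and 0.0519% higher and 0.147% lower at p20 Keniry2022. Before adjustment, p lay below 0.05 for 8 members at p10, all lower than at p0 (24.7% of all features), and for 10 at p20, 7 higher and 3 lower (28% of all features), and voom called 0 in both. Without p0 replicate 1 these counts of called members were 6 at p10 (5.23% of all features) and 2 at p20 (4.61%). Without p0 replicate 2 they were 18 and 19, where 64.3% and 66.5% of all features were called. The p0 replicates differed by up to 1.40 (Pfkfb3), and in 26 of 40 members replicate 2 was the higher. The mean p0 level lay nearer to the Keniry2022 mean than to the Mulas2019 mean for 32 of the 37 tested members (86.5%), against 68.7% of all features, as a description without a test.

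The other genes of the same pathways were taken from lists that hold no member. Of 11 tested genes of pyruvate entry, 4 were higher under Keniry2022 at p10 and 1 was lower, with a median of 0.16. The largest called differences were 0.45 ± 0.0627 for Dld, the dihydrolipoamide dehydrogenase of the PDH complex (adjusted p = 0.000939), and -0.15 ± 0.0535 for Cs, citrate synthase. Of 18 tested genes of the glycogen list, 2 were higher and 7 lower. The lower ones were led by Ppp1r3b, which targets a phosphatase to glycogen (-1.06 ± 0.167, adjusted p = 0.00155). Both that were higher were phosphoglucomutase relatives rather than enzymes of glycogen, led by Pgm3 (0.27 ± 0.0528).

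Of 16 other tested genes of glycolysis and gluconeogenesis, 4 were higher and 5 lower at p10, with a median of -0.03. The endoplasmic glucose 6-phosphate transporter Slc37a4 differed by -1.28 ± 0.157 (adjusted p = 0.000534) and Fbp2, a fructose bisphosphatase, by 0.64 ± 0.208 (adjusted p = 0.033). Of 6 other transport genes, 1 was higher (Slc5a1, a sodium-coupled glucose transporter, 0.56 ± 0.166) and 2 lower, with -0.33 ± 0.0425 for Bsg, the partner protein of the lactate transporters. Of 13 tested genes of the pentose phosphate pathway, which branches off at glucose 6-phosphate to make NADPH and ribose, 5 were higher and 1 lower at p10. Tktl2 had the largest positive difference (0.62 ± 0.146) and H6pd the only called negative one (-0.25 ± 0.0692), and the median was 0.01. At p20, 6 were higher and 0 lower, with a median of 0.15. The p20 counts of the other lists were 3 higher and 0 lower for pyruvate entry, and 1 (Pgm3) and 6 for the glycogen list. They were 3 and 6 for glycolysis and gluconeogenesis, and 1 and 3 for transport. All these lists stood beside the same 24.8% higher and 23.5% lower over all features at p10, and 18.6% and 18.2% at p20.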

How the data were processed

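Bulk RNA-seq was analysed in 10 libraries, 2 in each of 5 groups taken from the sample labels. Reads were 75 bases, single-end, aligned to mm10. The study's methods name HISAT2 and the submitters' processing notes TopHat2 2.0.12, and which made the values is not settled here. The deposited values, quantified by the authors in SeqMonk, are log2 RPKM (reads scaled to transcript length and library size), with 0 reads entered as 0.9 reads. Whole reads were recovered for 99.98% of the 11619 features searched (tolerance 0.1 reads) and for all 40 members.

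Features above a log2 of 0 in at least 4 of 8 (or 5 of 10) libraries were tested with limma 3.58.1 (R 4.3.3, trend), by two-sided tests, with p-values adjusted by Benjamini-Hochberg across every feature and a threshold of 0.05. The authors pooled p10 and p20, and here the passages were also fitted apart. The 8-library fit held 11654 features, and comparisons with p0 used all 10 libraries and 11561 features. Fold changes are differences of log2 RPKM. Library values are given by a rule: in each step the member with the highest mean level, the called member with the largest difference at p10, and members called against the direction of most. Other pathway genes named are the largest called change of their list at p10 in each direction. Tables and figures were made with Python 3.11.15, numpy 2.4.6, pandas 2.3.3 and matplotlib 3.10.9. The fits were tested on simulated data. Alternatives changed the filter, normalisation, weights, trend, block, scale and libraries. The members and lists were chosen with earlier results of these data known.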

Additional observations from a re-analysis of the deposited data

Results flagged for a closer look

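Among 74 groups of 4 libraries (a tested member under a method), 2 held a library far from the other 3 by Dixon's test. In groups of like libraries chance alone does so in about 1 of 20. Each group here mixed p10 and p20 libraries, so that rate is only a guide. For Pfkm under Keniry2022, p20 replicate 2 was highest, with a gap of 0.897 of the range, on log2 values of 4.10, 4.10, 4.10 and 4.14. For Pdk4 under Keniry2022, p20 replicate 1 was highest, with a gap of 0.884 of the range, on values of 0.15, 0.12, 0.39 and 0.11.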

How the results depend on the processing

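Signs were checked for members called at p10, at p20, at matched days and in the Mulas2019 comparisons with p0. None of these log2 differences changed sign under any alternative run. The calls of the pooled comparison and between the Mulas2019 passages were not checked in this way. Counts of called members moved as follows, and the cause was not tested. Where no share of all features stands beside a count, the count is not a result about the members. With all 10 libraries fitted, 2 members were called at p20 (2.15% of all features) and 8 at matched days (6.43%). Between the Mulas2019 passages 0 were called. Under library quality weights, 1 was called between the Keniry2022 passages and 0 against p0 in either Mulas2019 comparison. Quantile normalisation called 2 between the Keniry2022 passages. Without a filter, 0 were called between the Mulas2019 passages and 9 for p20 Mulas2019 against p0, and without the trend 0 between the Mulas2019 passages. With voom, 11 members passed the interaction (0.72% of all features), 9 the Keniry2022 passages (0.416%) and 5 the Mulas2019 passages (5.46%).

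Each line was split into both methods, but by the Y-linked reads the replicate numbers did not follow the lines at p20 Keniry2022. The deviations of p20 Keniry2022 correlated at -0.7 to -0.12 with the other groups, and those of the other groups at 0.17 to 0.63 with each other. A block on the replicate number therefore mispairs the lines at p20 Keniry2022. Its counts are given without the share of all features, so they are not a result about the members. In that fit 28 members were called at p10, 18 at p20, 28 pooled and 26 at matched days. There were 4 for the interaction, 2 between the Keniry2022 passages and 5 between the Mulas2019 passages. Against p0 there were 0 for both Keniry2022 groups, and 23 and 18 for p10 and p20 Mulas2019. With the numbers of p20 Keniry2022 crossed, as the Y-linked reads ask, the interaction and the Keniry2022 passages gave 0. The Mulas2019 passages gave 3, again without that share.

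Leaving out each library in turn gave 26 to 28 members at p10, 10 to 18 at p20, 25 to 29 pooled, 20 to 25 at matched days, 0 to 5 for the interaction, 0 to 6 between the Keniry2022 passages and 0 to 4 between the Mulas2019 passages. Against p0 it gave 0 to 18 for p10 Keniry2022, 0 to 19 for p20 Keniry2022, 0 to 28 for p10 Mulas2019 and 0 to 26 for p20 Mulas2019. These ranges are given without the share of all features, so they are not a result about the members. Against p0 the calls over all features also moved with the library left out, as described above. A group left with 1 library was assumed to vary like the others. Depth limits Eno2, at 7 to 41 reads.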
